A study of Mus musculus with 8 samples.

Results

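The granzymes measured here are those of the mast cell protease locus on mouse chromosome 14, namely Gzmb, Gzmc, Gzmd, Gzmf, Gzmg and Gzmn. They were taken by name, as transcript clusters (the array's gene-level units) to which the platform annotation gives exactly 1 symbol, and these 6 genes are 6 of 24111 clusters, with 1 cluster each. Gzme, which lies next to Gzmd, has 0 such clusters and was not analysed here. They were chosen by their measured differences between DC101 and placebo on these same arrays, so those comparisons are given for them as description, without a test.

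Mast cells (MC) were sorted from tumor tissue and peritoneal lavage of C57BL/6J mice, all of which carried subcutaneous tumors of Panc02, a mouse pancreatic cancer line, and were assigned to an arm once a tumor measured 100 mm3. The 4 groups were tumor MC after 40 mg/kg DC101, an anti-angiogenic antibody to VEGFR2, tumor MC after placebo, peritoneal MC after 40 mg/kg DC101 and peritoneal MC after placebo, with 2 arrays each. No group came from tumor-free mice, the tumors were at end stage, and the age and sex of the animals are not given. The sort used DAPI, CD45, CD11b, CD117 and the IgE receptor, and nothing states whether separate mice supplied the 2 arrays of a group. All p-values here therefore measure array-to-array spread, which may be technical.

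Granzymes are serine proteases that are stored in secretory granules as active enzymes and released together with the granule content. In cytotoxic T cells and natural killer (NK) cells they enter the target cell through pores made by perforin and cut proteins that lead to its death, and outside cells they can cut components of the extracellular matrix. In mice the locus holds granzyme genes next to chymase and other MC protease genes, and several of its granzymes arose by duplication and are found in rodents only.

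The sequences before the start sites show how alike these genes are where transcription begins. Below are the 150 bases upstream of each RefSeq start (build GRCm38.p6, minus strand of chromosome 14, given 5′ to 3′ along the gene) in the order in which the genes follow each other from the Gzmb end, where capitals mark TGACGTCA (the CRE of CREB and ATF factors), TGAGTCA (an AP-1 site) and TGTGGT (the core read by RUNX factors), searched on both strands.
Gzmb (chr14:56262335-56262484): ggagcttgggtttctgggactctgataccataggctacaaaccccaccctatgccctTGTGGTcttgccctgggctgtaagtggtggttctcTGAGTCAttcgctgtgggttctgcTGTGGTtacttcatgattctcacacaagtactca
Gzmc (chr14:56234658-56234807): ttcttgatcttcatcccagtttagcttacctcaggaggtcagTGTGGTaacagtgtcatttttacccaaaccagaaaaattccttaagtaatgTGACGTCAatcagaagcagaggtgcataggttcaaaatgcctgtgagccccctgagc
Gzmf (chr14:56211408-56211557): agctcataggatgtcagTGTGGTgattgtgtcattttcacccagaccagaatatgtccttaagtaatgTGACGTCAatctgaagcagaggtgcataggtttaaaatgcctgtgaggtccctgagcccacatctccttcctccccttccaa
Gzmn (chr14:56174600-56174749): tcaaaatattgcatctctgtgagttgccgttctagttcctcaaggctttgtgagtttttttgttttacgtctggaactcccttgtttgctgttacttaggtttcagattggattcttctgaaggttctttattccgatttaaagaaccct
Gzmg (chr14:56159580-56159729): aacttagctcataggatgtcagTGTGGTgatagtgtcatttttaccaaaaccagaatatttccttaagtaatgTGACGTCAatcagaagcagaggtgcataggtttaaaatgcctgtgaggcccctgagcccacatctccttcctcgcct
Gzmd (chr14:56132594-56132743): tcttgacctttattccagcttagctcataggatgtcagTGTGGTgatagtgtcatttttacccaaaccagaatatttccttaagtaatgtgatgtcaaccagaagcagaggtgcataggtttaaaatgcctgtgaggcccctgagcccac

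Over 250 bases upstream, the windows of Gzmc, Gzmd, Gzmf and Gzmg were identical in 70.2% to 82.2% of aligned columns. Gzmb shared 44% to 49.1% of columns with the other members and Gzmn shared 45.6% to 49.1%, and a gapped alignment of unrelated sequence also gives many identical columns. TGACGTCA stood 57 bases before the start in Gzmc, 82 in Gzmf and 77 in Gzmg, and 1.55% of 32851 RefSeq promoters of this length hold it. TGAGTCA stood in Gzmb alone, 58 bases before the start, against 4.46% of all promoters. TGTGGT occurred in 5 of the 6 windows, all but that of Gzmn, against 14% of all promoters. CANNTG, the E-box, was found in 4 of 6 windows and in 66.2% of all promoters, while 0 of 6 held the GATA letters AGATAA (9.99% of all promoters), the letters GGGAA (56.2%) or the STAT letters TTCNNNGAA (7.02%). No match overlapped another, and a match of letters describes the sequence, not a site in use.

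**Figure D1:**
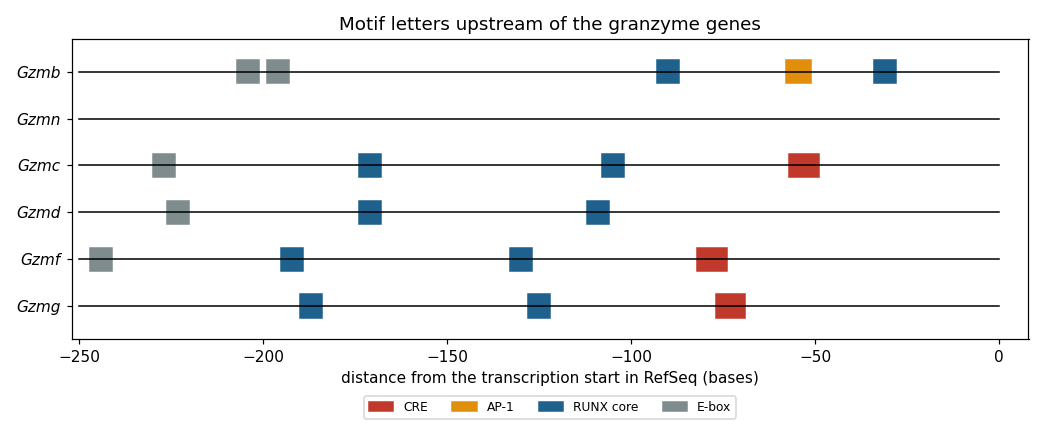
Positions of motif letters in the 250 bases before each RefSeq transcription start, with distance from the start in bases on the x axis and 1 row per gene. Gzmc, Gzmf and Gzmg hold the CRE (TGACGTCA), Gzmb holds the AP-1 site (TGAGTCA), 5 genes hold the RUNX core (TGTGGT), 4 hold an E-box (CANNTG) and Gzmn holds none of these.

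Values are on the log2 scale of RMA, and the median of all clusters lay at 3.34 to 3.46 on each array. RMA gives no detection call, so a low value cannot be told from background, and levels cannot be compared from one cluster to another. The granzyme genes are close paralogs, so a probe may read more than 1 of them and single genes are uncertain where they move together. Paired arrays of a group correlated at 0.974 to 0.986 over all clusters. Of 12 MC markers, among them Kit, Fcer1a, Cpa3 and Tpsb2, none lay below the median of any array. This also held for 10 macrophage markers in tumor MC and 4 B cell markers in peritoneal MC. It thus says nothing of the purity of the sorts. In these sorted populations, fewer cells of a type and less RNA per cell cannot be told apart.

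The 6 genes showed 4 patterns. Gzmb was well above the median cluster in every group and was highest in peritoneal MC of placebo mice. Gzmc was above it in tumor MC only, and Gzmd, Gzmf and Gzmg were above it in both arrays of a group only in tumor MC of DC101 mice. Gzmn was below the array median in 8 of 8 arrays. Over the 8 arrays, Gzmc spanned 6.17 on the log2 scale, the widest range of the 6, and Gzmn spanned 1.15, the narrowest.

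**Figure D2:**
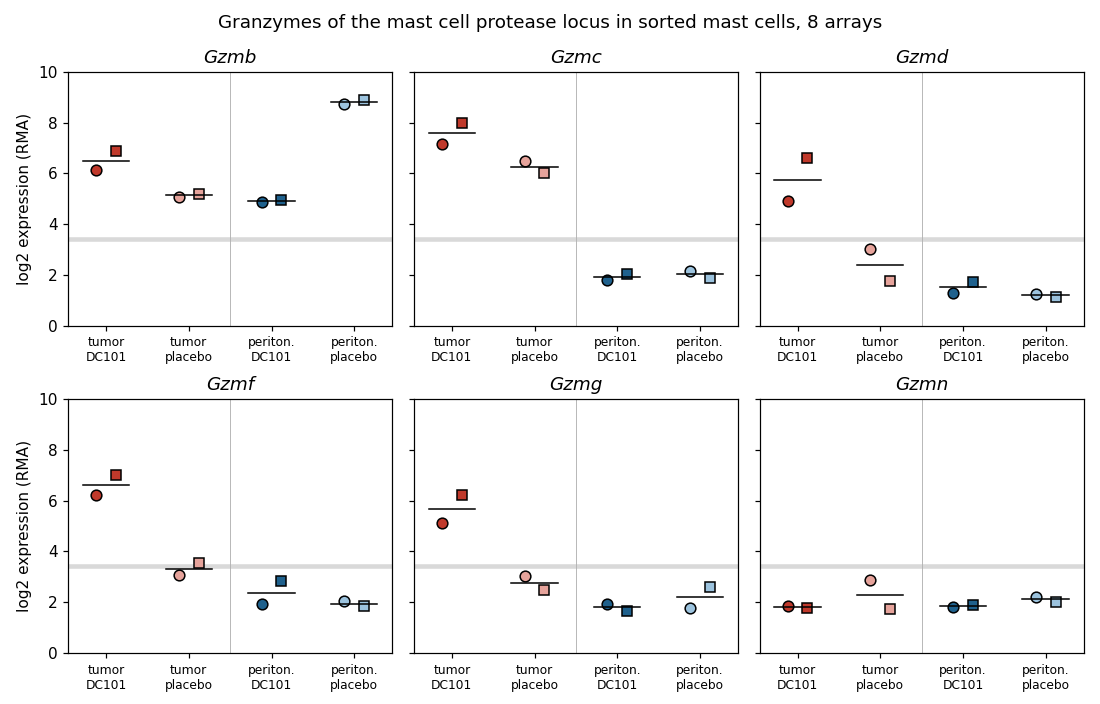
Log2 expression of the 6 granzyme genes by group, with circles for array 1, squares for array 2, a black line for the mean of each pair and a grey band for the range of the array medians. Gzmb is highest at 8.73 and 8.91 in peritoneal placebo MC, while Gzmc, Gzmd, Gzmf and Gzmg are highest in tumor DC101 MC and Gzmn stays under the band throughout.

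Granzyme B, the enzyme of the family that cuts after aspartate and activates caspases, differed between DC101 and placebo in both compartments, in opposite directions. In tumor MC, the Gzmb level was 6.14 and 6.88 with DC101, against 5.09 and 5.20 with placebo. In peritoneal MC, it was 4.88 and 4.97 with DC101, against 8.73 and 8.91 with placebo. Both DC101 arrays thus lay above both placebo arrays in the tumor, by 0.94 to 1.79, and below both in the peritoneum, by 3.76 to 4.03. The DC101 minus placebo difference was 1.36 (SE 0.26) in tumor MC, or 2.57-fold higher, and −3.89 (SE 0.26) in peritoneal MC, or 14.8-fold lower, which puts the responses 5.26 (SE 0.36) apart.

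The order of the groups for Gzmb ran through both compartments. Peritoneal placebo MC were followed by tumor DC101 MC at a distance of 2.31 between means, then by tumor placebo MC at 1.36 and by peritoneal DC101 MC at 0.22. No neighbouring groups overlapped, although the last gap is smaller than the standard error of a difference between groups.

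Granzyme C, which is known in mice from activated killer lymphocytes, had its high levels in tumor MC. Its level was 7.18 and 7.97 in tumor MC with DC101, against 6.50 and 6.04 with placebo. In peritoneal MC it was 1.81 and 2.04 with DC101, against 2.17 and 1.88 with placebo. Both DC101 arrays lay above both placebo arrays in the tumor, with a difference of 1.31 (SE 0.30), and the peritoneal arrays overlapped, with a difference of −0.10 (SE 0.30). Gzmc, the direct neighbour of Gzmb, thus had almost the same tumor difference, while its peritoneal arrays were below the array median in both arms.

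Granzymes D, F and G, which are known in mice from activated killer lymphocytes and from NK cells of the pregnant uterus, had the widest differences in tumor MC. Gzmf was at 6.24 and 6.99 in tumor MC with DC101, against 3.07 and 3.56 with placebo. The difference for Gzmf was 3.30 (SE 0.35), and single arrays were 2.68 to 3.92 apart.

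Gzmd was at 4.90 and 6.59 in tumor MC with DC101, against 3.03 and 1.75 with placebo. Its difference was 3.35 (SE 0.54), with the largest standard error of the 6 genes, since both tumor pairs of arrays were more than 1 apart. For Gzmg, tumor MC gave 5.11 and 6.24 with DC101, against 3.04 and 2.49 with placebo, a difference of 2.91 (SE 0.40). The tumor placebo values of Gzmd and Gzmg and 1 of the 2 of Gzmf lay under the array median, so these are differences between RMA values and no folds are given.

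In peritoneal MC these 3 genes were low in both arms. Gzmf was at 1.93 and 2.83 with DC101, against 2.05 and 1.85 with placebo. Gzmd was at 1.30 and 1.74 with DC101, against 1.24 and 1.15 with placebo. Gzmg was at 1.95 and 1.67 with DC101, against 1.78 and 2.60 with placebo. The arms of Gzmf and Gzmg overlapped and those of Gzmd did not, and all of these values lay under the array medians. The differences were 0.43 (SE 0.35) for Gzmf, 0.33 (SE 0.54) for Gzmd and −0.38 (SE 0.40) for Gzmg. The tumor response exceeded the peritoneal one by 2.87 (SE 0.50) for Gzmf, 3.02 (SE 0.77) for Gzmd, 3.29 (SE 0.57) for Gzmg and 1.41 (SE 0.42) for Gzmc.

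Granzyme N, which was described in germ cells of the mouse testis, stayed low in every group. Its level was 1.84 and 1.79 in tumor MC with DC101, against 2.87 and 1.72 with placebo. In peritoneal MC it was 1.81 and 1.91 with DC101, against 2.22 and 2.02 with placebo. The tumor arrays overlapped, with a difference of −0.48 (SE 0.33), and the peritoneal DC101 arrays lay just below the placebo arrays, with a difference of −0.26 (SE 0.33). Gzmn lies between Gzmg and Gzmf on the chromosome.

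Of the 6 genes, 5 had both tumor DC101 arrays above both tumor placebo arrays and a difference of at least 1, which held for 0.423% of all clusters in that direction. In the peritoneum 1 of the 6, Gzmb, lay below in the same way, which held for 2.83% of all clusters. Since these comparisons brought the genes to attention, nothing is read from either count. For tumor MC the median difference of the 6 was 2.13, against −0.03 over all clusters, and for peritoneal MC it was −0.18, against −0.02. In limma's test over all clusters at an adjusted p under 0.05, 0% were called for tumor MC, 4.58% for peritoneal MC and 0.805% for the difference between these responses.

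The tumor differences depended in size on the DC101 arrays. Array 2 of tumor DC101 was higher than array 1 by 0.74 for Gzmb, 0.80 for Gzmc, 0.75 for Gzmf, 1.13 for Gzmg and 1.69 for Gzmd. The mean of the 12 MC markers was also higher in that array, by 0.66. In the tumor placebo pair, array 2 minus array 1 was −0.89 for the marker mean. There it was −1.28 for Gzmd, −0.55 for Gzmg and −0.46 for Gzmc, but 0.12 for Gzmb and 0.49 for Gzmf. The part of these marker gaps in the result was not tested. Without tumor DC101 replicate 2 the difference was 0.995 for Gzmb, 0.91 for Gzmc, 2.93 for Gzmf, 2.34 for Gzmg and 2.51 for Gzmd. Without replicate 1 in its place it was 1.73 for Gzmb, 1.71 for Gzmc, 3.68 for Gzmf, 3.47 for Gzmg and 4.20 for Gzmd.

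The mean difference between tumor and peritoneal MC over both treatments is orthogonal to the DC101 comparisons in this balanced design and was tested. With limma and Benjamini-Hochberg adjustment over all clusters, 5 of the 6 genes passed, 4 of them higher in tumor MC (Gzmc, Gzmd, Gzmf and Gzmg) and 1 lower (Gzmb). Among all clusters 16.3% were higher and 13.2% lower by the same test. For Gzmd, Gzmf and Gzmg, which were low in the other groups, the mean is carried by the tumor DC101 arrays on which they were chosen. For Gzmb it is carried by the peritoneal placebo arrays, on which that gene was chosen. Nothing is read from the passing of these genes or from the count, and their values are given as description. The median of the 6 was 2.47, against −0.03 over all clusters.

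Gzmc was higher in tumor MC by 4.95 (95% interval 4.47 to 5.42), with an adjusted p of 3.9e-07 in limma, and no fold is given because all its peritoneal values lay under the array medians. All 4 tumor arrays lay above all 4 peritoneal arrays by at least 3.86. The difference was large within each treatment, at 5.65 (SE 0.30) with DC101 and 4.24 (SE 0.30) with placebo.

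For Gzmf the mean difference of 2.80 was made of 4.24 (SE 0.35) with DC101 and 1.36 (SE 0.35) with placebo. For Gzmd the mean of 2.71 was made of 4.22 (SE 0.54) with DC101 and 1.20 (SE 0.54) with placebo. The mean of 2.22 for Gzmg was made of 3.86 (SE 0.40) with DC101 and 0.58 (SE 0.40) with placebo. With placebo alone, the 95% interval of the difference spanned 0 for Gzmd (−0.03 to 2.43) and Gzmg (−0.34 to 1.49) and was 0.57 to 2.16 for Gzmf. In 3 of the 6 genes, Gzmc, Gzmd and Gzmf, every tumor array was above every peritoneal array, which held for 15.4% of all clusters, and the smallest gap was 0.01 for Gzmd. The tumor placebo arrays of Gzmg overlapped the peritoneal placebo arrays.

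Gzmb was lower in tumor MC by the mean, at −1.04 (SE 0.18), and nothing is read from this. That mean averages opposite values, 1.58 (SE 0.26) with DC101 and −3.67 (SE 0.26) with placebo, so it describes neither arm. Gzmn differed by 0.06 (95% interval −0.46 to 0.59, limma adjusted p = 0.88), and its tumor and peritoneal arrays overlapped. The Gzmc difference was 4.75 to 5.15 when any 1 of the 8 arrays was left out.

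**Figure D3:**
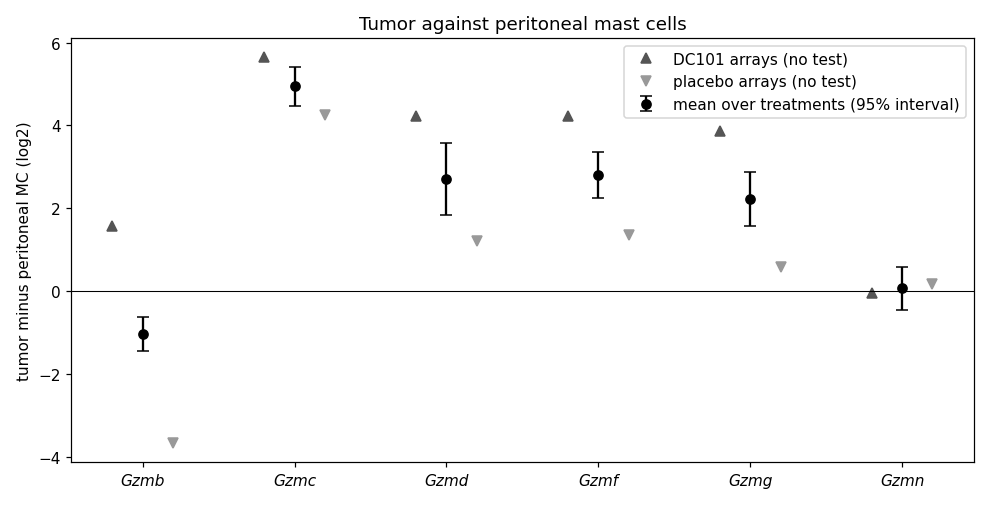
Tumor minus peritoneal MC on the log2 scale for each granzyme gene, with black points and 95% intervals for the mean over treatments, upward triangles for DC101 arrays and downward triangles for placebo arrays. The Gzmc values lie between 4.24 and 5.65, the Gzmb triangles lie on opposite sides of 0, and the Gzmn interval spans 0.

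Peritoneal MC arrays also held B cell, macrophage and eosinophil genes that tumor MC arrays held less of. All 4 measured B cell markers were lower in tumor MC, by 3.82 to 6.23 on the log2 scale, as were 8 of 10 macrophage markers and 4 of 5 eosinophil markers. The macrophage marker Fcgr1 was higher in tumor MC, by 1.74. Of 3 mesothelial markers, 1 was higher in tumor MC (Msln, by 4.38) and 1 lower. Of 13 T and NK cell markers, 3 were higher in tumor MC (Cd8a by 1.39, Cd3e by 1.09 and Xcl1 by 0.78) and 3 lower (Cd2, Klrd1 and Klrk1). With DC101 alone, Xcl1 was higher in tumor MC by 2.82 (SE 0.28) and Cd3e by 2.39 (SE 0.46). With placebo alone, the difference was −1.27 (SE 0.28) for Xcl1 and −0.22 (SE 0.46) for Cd3e. The means of these genes thus average unlike arms. The part of these genes in the compartment differences of the granzymes was not tested.

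Among the other genes of the locus, Mcpt8 was the one that passed a test of DC101 against placebo. Of 8 neighbours outside the granzymes, 0 passed in tumor MC with DC101 against placebo (1 at an unadjusted p under 0.05), with a median of 0.08. In peritoneal MC this was 1 of 8, and Mcpt8, a granule protease of basophils and some MC, fell, while the median of the neighbours was −0.41. Mcpt8 was at 8.08 and 8.74 in tumor MC with DC101, against 6.83 and 6.58 with placebo. In peritoneal MC it was at 6.89 and 7.50 with DC101, against 9.76 and 9.84 with placebo (limma adjusted p = 0.0029). Mcpt8 was singled out by the study from these contrasts, as Gzmb was, so this is no independent evidence.

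Between the compartments, 3 neighbours were higher in tumor MC and 2 lower. Mcpt1, a chymase of mucosal MC, was at 10.95 and 10.75 in tumor MC with DC101 and 9.60 and 9.20 in tumor MC with placebo. In peritoneal MC it was at 1.71 and 2.57 with DC101 and 1.50 and 3.94 with placebo. Its tumor minus peritoneal difference was 7.69 (SE 0.46, limma adjusted p = 2.7e-06), against 4.95 for Gzmc. Mcpt2, another mucosal chymase, was higher by 6.04 (SE 0.99, limma adjusted p = 0.0014), and Ctsg, which encodes cathepsin G, was lower, at −3.58 (SE 0.15, limma adjusted p = 4.4e-07). Mcpt9 was higher by 0.76, a call that was lost without any 1 of 5 arrays. All Mcpt9 values, 1.32 to 2.66, lay under the array medians and cannot be told from background. Mcpt8 was lower by the mean, at −0.94, which averages 1.21 with DC101 and −3.09 with placebo and describes neither arm.

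**Figure D4:**
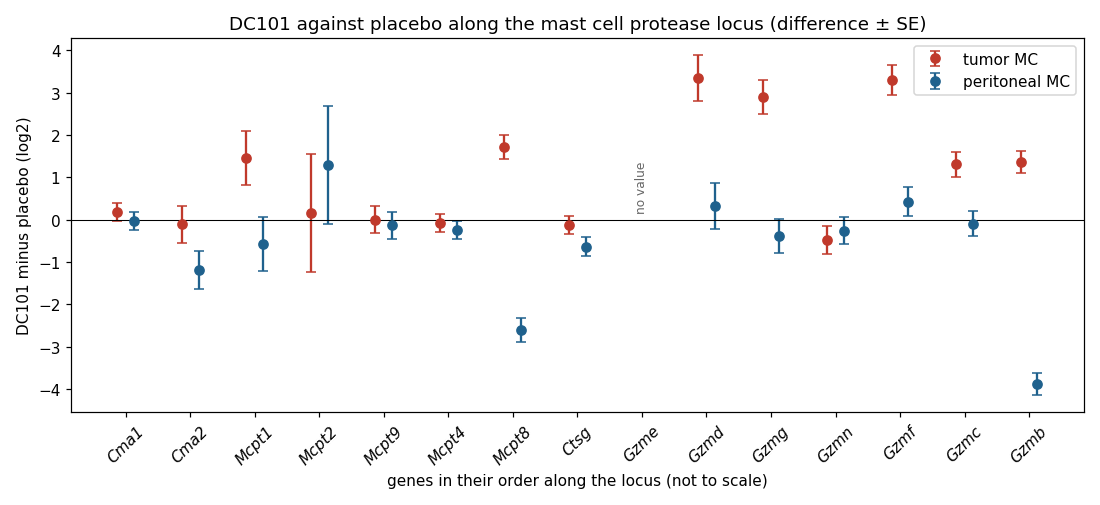
DC101 minus placebo difference on the log2 scale with SE for the genes of the locus in chromosomal order (not to scale), in red for tumor MC and blue for peritoneal MC. Mcpt8 and Gzmb, with tumor differences of 1.71 and 1.36, are the genes with a positive tumor value and a peritoneal value below −2, and Gzmd, Gzmg and Gzmf have the highest tumor values. Gzme has no value.

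The granzymes of other loci and perforin, the pore protein, were measured with 4 genes. Of Gzma, Gzmk, Gzmm and Prf1, 0 of 4 passed in tumor MC with DC101 against placebo (1 at an unadjusted p under 0.05), with differences from −0.41 to 0.69. That 1 gene was Prf1, which encodes perforin, at 4.22 and 4.37 with DC101, against 3.26 and 3.94 with placebo. In peritoneal MC 1 of the 4 fell, Gzma, which encodes the trypsin-like granzyme A. Gzma was at 5.65 and 3.01 in peritoneal MC with DC101, against 7.70 and 7.98 with placebo, a difference of −3.51 (SE 0.68, limma adjusted p = 0.024). That call was lost without peritoneal placebo replicate 1 (adjusted p = 0.082) or replicate 2 (adjusted p = 0.12). Both Gzma and Gzmb were thus lower in the peritoneal DC101 arrays than in the peritoneal placebo arrays.

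The machinery that handles granzymes was measured with 13 of 14 genes. In DC101 against placebo 0 passed in either compartment, with a median of 0.06 for tumor MC and 0.24 for peritoneal MC (1 and 2 at an unadjusted p under 0.05). That includes Ctsc, the dipeptidyl peptidase that activates granzymes, Srgn, the proteoglycan core that packs them, and Serpinb9, the inhibitor of granzyme B. Ctsc was at 8.64 and 9.18 in tumor MC with DC101, against 9.14 and 9.32 with placebo. Between compartments 3 of the 13 were higher in tumor MC and 5 lower, among them the serpin Serpinb6b at 1.88 (SE 0.16, limma adjusted p = 2.9e-05), the granule transport gene Rab27a at −2.61 (SE 0.26, limma adjusted p = 7.4e-05) and the protease Ctsh at −2.62 (SE 0.19, limma adjusted p = 1.1e-05).

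Of 21 regulators of granzyme genes known from lymphocytes, 19 were measured, and 0 passed in tumor MC (0 at an unadjusted p under 0.05 as well). In peritoneal MC 3 rose and 2 fell with DC101. Il2rb, the receptor chain shared by IL-2 and IL-15, was at 3.39 and 2.48 in peritoneal MC with DC101, against 5.84 and 5.79 with placebo (−2.88, SE 0.35, limma adjusted p = 0.0041). Eomes, a T-box factor of killer lymphocytes, fell by 1.64 (SE 0.19, limma adjusted p = 0.0031). Its values with DC101, 2.44 and 2.47, lay under the array medians, against 4.01 and 4.18 with placebo. The AP-1 genes Junb and Fos rose by 2.13 (SE 0.21) and 2.08 (SE 0.24), with limma adjusted p of 0.0019 and 0.0035, and Jun rose by 1.25 (SE 0.23, adjusted p = 0.019). The Jun call was lost without peritoneal DC101 replicate 1 (adjusted p = 0.058) or replicate 2 (adjusted p = 0.085) or peritoneal placebo replicate 2 (adjusted p = 0.11). In tumor MC these AP-1 genes were high in both arms, with Fos at 9.54 and 9.29 with DC101, against 9.38 and 9.48 with placebo. Between compartments 7 of the 19 regulators were higher in tumor MC and 5 lower, against 16.3% and 13.2% of all clusters. The differences ran from −1.98 for Batf to 1.43 for Runx3.

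Most markers of T and NK cells, which also express granzymes, moved with Gzmb in the peritoneum. Of 13 measured markers 8 fell and 0 rose in peritoneal MC with DC101, with a median of −2.27. The summed level of the list was 1376 and 965 on the linear scale with DC101, against 3682 and 3857 with placebo. Xcl1, a chemokine of T and NK cells, fell by 4.59 (SE 0.28, limma adjusted p = 0.00025), and Ncr1, an activating receptor of NK cells, fell by 2.59 (SE 0.27, limma adjusted p = 0.0023). The Ncr1 values with DC101, 2.54 and 2.38, lay under the array medians. Only 2 of the 13 passed when peritoneal DC101 replicate 2 or peritoneal placebo replicate 2 was left out. Of the defining T cell genes, Cd3e was at 3.56 and 3.09 with DC101, against 5.24 and 6.04 with placebo. Of the 13 markers, 1 had a higher mean with DC101. It was the NK cell gene Klrd1, at 8.71 and 8.38 with DC101, against 8.01 and 8.37 with placebo. The part of T and NK cells in the peritoneal Gzmb difference was not tested.

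In tumor MC the summed level of the same list overlapped between the arms, while single genes of the list did not, in both directions. The summed level was 1285 and 1299 with DC101, against 861 and 1951 with placebo, so both DC101 arrays lay between the placebo arrays, and 0 of 13 markers passed (2 at an unadjusted p under 0.05), with a median of 0.02. These 2 were Klrd1, an NK cell receptor chain, at 6.06 and 6.22 with DC101, against 4.97 and 5.48 with placebo, and Ncr1, at 3.51 and 4.31 with DC101, against 3.30 and 3.28 with placebo. Xcl1 lay the other way, at 7.53 and 7.41 with DC101, against 7.59 and 8.36 with placebo. The part of these genes in the tumor granzyme differences was not tested. The macrophage list had means of 7.10 and 7.29 with DC101, against 7.55 and 7.81 with placebo, and 9 of its 10 markers had lower means with DC101, 0 of them past the threshold and 3 at an unadjusted p under 0.05 (Adgre1, Mrc1 and Csf1r). The basophil list had means of 6.06 and 6.88 with DC101, against 6.65 and 5.99 with placebo, and the plasmacytoid dendritic cell list had 4.27 and 3.84 with DC101, against 3.76 and 3.83 with placebo. MC markers had means of 8.89 and 9.54 with DC101, against 9.70 and 8.81 with placebo, and 0 of 12 passed in either compartment (0 at an unadjusted p under 0.05 in tumor MC, 3 in peritoneal MC). In the peritoneum the eosinophil list had summed levels of 677 and 448 with DC101, against 106 and 105 with placebo, and the macrophage list had 9356 and 10925 with DC101, against 7007 and 6034 with placebo. Of the 10 macrophage markers, 2 passed as higher in peritoneal MC with DC101 and 1 as lower. The lower one was Fcgr1, at 3.08 and 4.26 with DC101, against 6.27 and 6.36 with placebo.

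**Figure D5:**
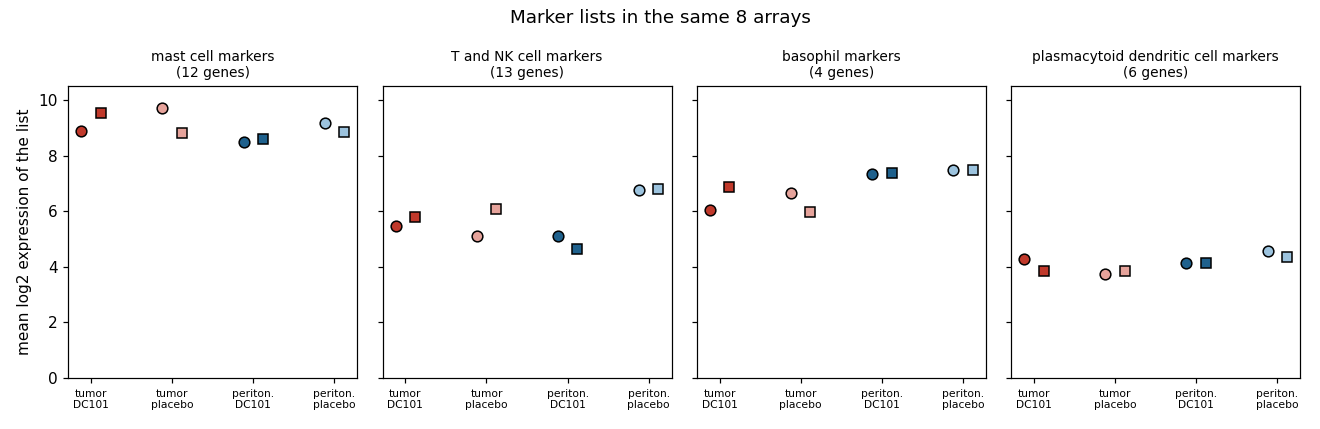
Mean log2 expression of 4 marker lists in the 8 arrays, with circles for array 1 and squares for array 2 of each group. The MC list lies between 8.48 and 9.70 throughout, and the T and NK cell list is highest in peritoneal placebo MC, at 6.76 and 6.80, against 5.10 and 4.64 in peritoneal DC101 MC.

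The genes whose values most resembled those of Gzmb over the 8 arrays were sought among 4622 clusters above the median cluster with group means at least 1 apart. Pearson's r, given as a description since the arrays share 4 group means, was 0.97 for Pnn (a splicing-associated protein) and for Ggct (a glutathione cycle enzyme), 0.96 for Mcpt8 and for the small GTPase gene Rab19, and 0.95 for Ncr1. For the mean of Gzmd, Gzmf and Gzmg, the closest were 1700001L05Rik (0.95), Dmwd (0.94), the interferon-induced genes Ifit3b and Ifit3 (0.93 each) and the calcium-binding protein gene S100g (0.92). Group means of Ifit3 were 6.57 in tumor DC101 MC, 5.76 in tumor placebo MC, 5.28 in peritoneal DC101 MC and 5.35 in peritoneal placebo MC. The genes that make up a pattern were left out of its own search, and clusters under the median, Gzmd, Gzmg and Gzmn among them, could not enter.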

How the data were processed

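RNA of MC sorted from tumors and peritoneal lavage was measured on Mouse Gene 2.1 Affymetrix arrays, 2 in each of the 4 groups, and groups and array numbers were taken from the sample labels. The log2 values were made by the authors with RMA in R and Bioconductor and deposited, and the sources used here do not give the RMA version, its options or the choice of clusters. Quantile normalization, a step of RMA, removes any change that all genes share. Of 24111 transcript clusters, 21508 had 1 symbol, 566 several and 2037 none in the platform annotation, and 21399 were found by gene identifier in RefSeq (GRCm38.p6). All 8 columns were used.

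From these values, contrasts were fitted with limma 3.58.1 in R 4.3.3, as 4 group means with the spread estimated from all 8 arrays (4 residual degrees of freedom, 4.93 from the prior). Benjamini-Hochberg adjustment ran over all clusters, and the threshold was an adjusted p of 0.05. The members and the gene lists were chosen with earlier results of these data known, so members were fitted with a test only in the mean difference between compartments, and a list is described by counts and its median. Named genes were the members, their 8 locus neighbours, list genes (first those that passed a test) and the 5 clusters most like each pattern. Upstream windows from RefSeq were searched and aligned with Biopython 1.88 in Python 3.11.15, and figures were drawn with matplotlib 3.10.9. Protein sequences were not analysed here. The fits were tested on simulated data. Alternatives were leaving out each array, cyclic loess, array weights, a replicate block, a prior with trend, no moderation, and tables without dim clusters or clusters without 1 symbol. The number of arrays limits the precision.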

Additional observations from a re-analysis of the deposited data

Results flagged for a closer look

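The DC101 response of Gzmb differed in direction between the compartments: every DC101 array was above every placebo array in tumor MC and below every one in peritoneal MC, and the responses were 5.26 apart on the log2 scale. This difference was not tested, since both responses had been used in choosing the gene.

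Among the locus neighbours and the pathway lists, the DC101 response differed between tumor and peritoneal MC for 4 genes in limma's interaction test over all clusters. The tumor response exceeded the peritoneal one by 4.31 for Mcpt8. Nothing is read from its passing, since the study had chosen Mcpt8 from both responses. For Il2rb the tumor response exceeded the peritoneal one by 2.74 (adjusted p = 0.048, and 0.024 to 0.29 over the alternatives). It was below the peritoneal one for Junb, with −1.87 (adjusted p = 0.034, and 0.0036 to 0.19), and for Fos, with −2.10 (adjusted p = 0.037, and 0.0052 to 0.23). Of 15 alternatives, 6 kept the difference past the threshold for each of Il2rb, Junb and Fos.

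Among the marker lists, 7 more genes passed the same test. The tumor response exceeded the peritoneal one for the T and NK cell markers Xcl1, by 4.08 (adjusted p = 0.0066, and 0.00078 to 0.19 over the alternatives), and Ncr1, by 3.22 (adjusted p = 0.012, and 0.0064 to 0.19). Itga2 was the 1 of 4 genes of the basophil list that rose in peritoneal MC with DC101. Its tumor response was below the peritoneal one, with −3.88 (adjusted p = 0.027, and 0.0079 to 0.25). The macrophage markers Mrc1, with −3.68 (adjusted p = 0.012, and 0.0026 to 0.21), and Adgre1, with −1.83 (adjusted p = 0.048, and 0.0099 to 0.23), were also below. So were the eosinophil markers Siglecf, with −3.75 (adjusted p = 0.027, and 0.0092 to 0.25), and Ccr3, with −3.61 (adjusted p = 0.011, and 0.0047 to 0.19). Of 15 alternatives, 14 kept the difference past the threshold for Xcl1, 13 for Ncr1, 12 for Mrc1 and 11 for Ccr3. It was kept in 9 for Itga2, in 7 for Siglecf and in only 3 for Adgre1. The direction of all 11 differences held in all alternatives. Over all clusters 0.805% passed this test. No group had enough arrays for a search for outlying samples.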

How the results depend on the processing

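Among the granzyme genes, 5 of 6 stayed called in tumor against peritoneal MC under cyclic loess, array weights and a prior with trend. The same 5 stayed called without moderation and with clusters with 1 symbol only. Both arrays of a group got equal array weights, so these weights compare groups and cannot single out an array. Gzmd, Gzmf and Gzmg were called through tumor DC101 values on which they were chosen, and Gzmb through such peritoneal placebo values. With only clusters above the median cluster 3 were called (Gzmb, Gzmc and Gzmf), since the filter removes Gzmd, Gzmg and Gzmn. Over the alternatives the difference was −1.23 to −0.86 for Gzmb, 4.75 to 5.15 for Gzmc and −0.22 to 0.35 for Gzmn. The count of members with a tumor DC101 difference of at least 1 in size was 5, and 3 to 6 with 1 array left out. It was 3 without tumor DC101 replicate 2, where Gzmb and Gzmc are just under 1, and 6 without tumor placebo replicate 2, where Gzmn is at −1.05. No value of a called result changed sign.

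Counts over all clusters moved more. In peritoneal MC with DC101 against placebo 1105 were called, 311 to 906 with 1 array left out and 33 without moderation. For the difference of responses 194 were called, 22 to 187 with 1 array left out, 463 with a trend, 346 above the median cluster and 0 without moderation. In tumor MC 0 were called, and 0 to 2 with 1 array left out. The compartment difference gave 7124, and 5705 to 6813 with 1 array left out. Without moderation 0 of 13 T and NK cell markers and 1 of 19 regulators passed in peritoneal MC, the neighbours gave 2 of 8 and the handling genes 5 of 13 between compartments, and Mcpt8 in peritoneal MC had an adjusted p of 0.087. The cause was not tested.

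Arrays with the same number share only a number: their deviations correlated at −0.16 between the tumor arms and at −0.02 to 0.02 elsewhere. With the replicate number as a block 5 members stayed called, the difference of responses gave 113 clusters, peritoneal MC 850, tumor MC 0 and the compartments 6865. A block with the tumor placebo numbers crossed, added after the data were seen, gave 153, 1030, 0 and 7025. Averaging several clusters per gene was not run, as each member has 1. With 2 arrays a group, low values near the array background and the paralogs' shared probes limit what can be said of single genes.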
